A study of Mus musculus with 45 samples.

Results

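The 10 genes described here form the major histocompatibility complex (MHC) class I antigen presentation pathway: the heavy chains H2-K1 and H2-D1, the light chain B2m, the peptide transporter subunits Tap1 and Tap2, the loading factor Tapbp, the immunoproteasome subunits Psmb8 and Psmb9, the transactivator Nlrc5 and the trimming peptidase Erap1. They were taken by gene symbol from the 28454 genes listed, and all 10 were found. Polyadenylated RNA was sequenced from 45 cultures of mouse mammary tumour cell lines, 3 for each of 15 combinations of line and medium. The study asked how lines of rising metastatic potential differ and how they respond to loss of cysteine and cystine.

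MYAZ16.1e, MYAZ12.3i and MYAZ6.6g (together MYAZ) were isolated from mammary tumours of MMTV-cMYC mice, in which a mammary tumour virus promoter drives cMYC. Myc310 came from another such mouse with multiple tumours and is 1 line, so its comparisons have no replication between lines. LM1, LM2 and LM3 (together LM) were recovered from lungs after Myc310 cells were injected into the mammary fat pad. LM1-LM was recovered from lungs after injection of LM1, and the study calls LM2-LM and LM3-LM its biological replicates (together LM-LM). These 10 lines were grown in control medium. MYAZ16.1e, Myc310, LM1 and LM1-LM were also given medium free of cysteine and cystine for 6 h. The last group, the MYAZ12.3i NDI1 line in control medium, is named for a single-subunit NADH dehydrogenase of yeast. All cells were seeded at 250000 per well and the medium was changed after 24 h. The 3 cultures of a line are called technical replicates in the series' design text, so p-values between lines or media measure the spread between cultures. The libraries are bulk RNA of whole cultures, so fewer cells that express a gene and less of its RNA per cell cannot be told apart.

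MHC class I molecules show fragments of a cell's own proteins to cytotoxic T cells. The proteasome cuts the proteins, the TAP transporter carries the fragments into the endoplasmic reticulum, tapasin holds an empty heavy chain and light chain next to TAP until a fragment binds, and the peptidase ERAP1 trims fragments that are too long. Interferons raise the whole pathway through IRF and STAT factors, and NLRC5 binds class I promoters as part of a larger complex. Tumours often lower these genes, which makes them harder for T cells to see.

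Most of the genes lie close together in the MHC on chromosome 17 (GENCODE M21 gene bounds on GRCm38, the build named in the submitters' processing notes). Tapbp spans chr17:33915899-33929292 on the plus strand and H2-K1 spans chr17:33996017-34000347 on the minus strand. Psmb9 (chr17:34181987-34187764, minus) and Tap1 (chr17:34187553-34197225, plus) overlap head to head, and Psmb8 (chr17:34197721-34201454, plus) and Tap2 (chr17:34203527-34216321, plus) follow. H2-D1 lies apart at chr17:35262730-35267499 on the plus strand. Outside the complex are B2m (chr2:122147686-122153083, plus), Nlrc5 (chr8:94434356-94527272, plus) and Erap1 (chr13:74639568-74693201, plus).

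Some reads can be shared between genes. Of the 100-base windows in annotated H2-K1 transcripts, 0.957% also occur in another gene's transcripts, led by H2-Q10, and for H2-D1 the share is 3.59%, led by H2-Q1. The other members shared 0.0775% of windows at most. The libraries were made with a directional kit, but the strand setting of the counting is not given in the sources used here, so reads in the overlap of Tap1 and Psmb9 cannot be told apart, nor can those of B2m with Patl2, of Erap1 with Cast, of Tap2 with Gm15821 and Gm20496, of Psmb8 with Gm20496, of Tapbp with Gm19412 or of Nlrc5 with 9330175E14Rik. Tapbp also overlaps Zbtb22 and Nlrc5 overlaps Mir7072 on the same strand, which a strand setting would not separate. The study's mice were FVB/NJ, and the effect of differences between their MHC sequences and the reference on the heavy chain counts was not tested.

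The promoters of H2-K1, H2-D1 and B2m are described because these 3 genes, which build the complex on the cell surface, responded differently to the medium. RefSeq promoter windows (GRCm38.p6) were matched for 8 of the 10 members, all but Tap2 and Nlrc5. The 250 bases before each start site were searched on both strands for the IRF core AANNGAAA, the STAT site TTCNNNGAA, a 10-base NF-kB site (the first run of capitals in the blocks printed after the windows), the Y box CCAAT and the X2 box TGACGC, and matches are in capitals. The H2-K1 window is chr17:34000348-34000597 on the minus strand. The B2m stretch, chr2:122147437-122147685 on the plus strand, ends at the last base before the annotated gene.
H2-K1: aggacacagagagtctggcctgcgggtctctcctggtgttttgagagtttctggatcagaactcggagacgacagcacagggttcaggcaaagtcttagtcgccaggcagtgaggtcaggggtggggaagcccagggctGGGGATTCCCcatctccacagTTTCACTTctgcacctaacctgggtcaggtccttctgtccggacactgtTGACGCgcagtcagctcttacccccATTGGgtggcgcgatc
B2m: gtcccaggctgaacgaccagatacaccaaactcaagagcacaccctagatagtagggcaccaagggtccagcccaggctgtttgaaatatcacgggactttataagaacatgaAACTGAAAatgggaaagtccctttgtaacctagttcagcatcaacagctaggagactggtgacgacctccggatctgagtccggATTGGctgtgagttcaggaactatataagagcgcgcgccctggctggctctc

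The H2-K1 window held the NF-kB, IRF, X2 and Y letters in that order, and the H2-D1 window held the same 4 in the same order. A second Y box lay in the H2-D1 window and in the window of another RefSeq start of H2-K1. The NF-kB letters are rare, with matches in 28 of 32851 promoters of the same length (0.0852%), and H2-K1 and H2-D1 were the 2 members that had them. The block from the NF-kB to the IRF match is chr17:34000430-34000458 (minus) in H2-K1 and chr17:35262923-35262951 (plus) in H2-D1, where it lies in the first exon of an annotated longer transcript.
H2-K1: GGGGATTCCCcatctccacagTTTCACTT
H2-D1: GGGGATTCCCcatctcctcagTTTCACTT

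These blocks are identical at 28 of 29 positions and differ by A18T, counted from 1 at the 5′ end with the H2-K1 base first. B2m had an IRF core and a Y box. The IRF core was found in 3 of the 8 members' windows and in 21.3% of all promoters, the Y box in 6 of 8 and 33.8%, the X2 box in 2 of 8 and 6.12%, and the STAT site in 1 of 8, Psmb8, and 7.02%. A match is a match of letters and not a measured binding site.

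Levels are CPM, counts scaled to library size with TMM factors over the 45 libraries. The library totals ran from 19517859 to 29019988 counts, with a median of 22899900. Per kilobase of annotated exon, H2-D1 and B2m were the most abundant members, at 102 to 186 and 134 to 346 CPM per kb over the 10 lines in control medium. H2-K1 stood at 29.3 to 74.8, Tapbp at 15.1 to 34.0 and Erap1 at 5.79 to 9.58 CPM per kb. Tap2 stood at 1.64 to 13.7 and Tap1 at 0.643 to 2.16. The immunoproteasome subunits Psmb8 (0.073 to 8.67) and Psmb9 (0.161 to 1.40) were low in some lines, and Nlrc5 was the lowest member at 0 to 0.805 CPM per kb.

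Lines of the same subtype differed in many members. Among the 7 lines of the Myc310 lineage, LM2, LM3 and LM3-LM were the top 3 for 9 of the 10 members, all but Erap1, and for 12% of all genes. These 3 lines were picked out after the values were seen. Myc310, LM1, LM1-LM and LM2-LM were low. The lines of MYAZ also lay apart, with MYAZ12.3i the highest of all 10 lines for H2-K1, H2-D1, B2m, Tap2 and Psmb9.

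**Figure D1:**
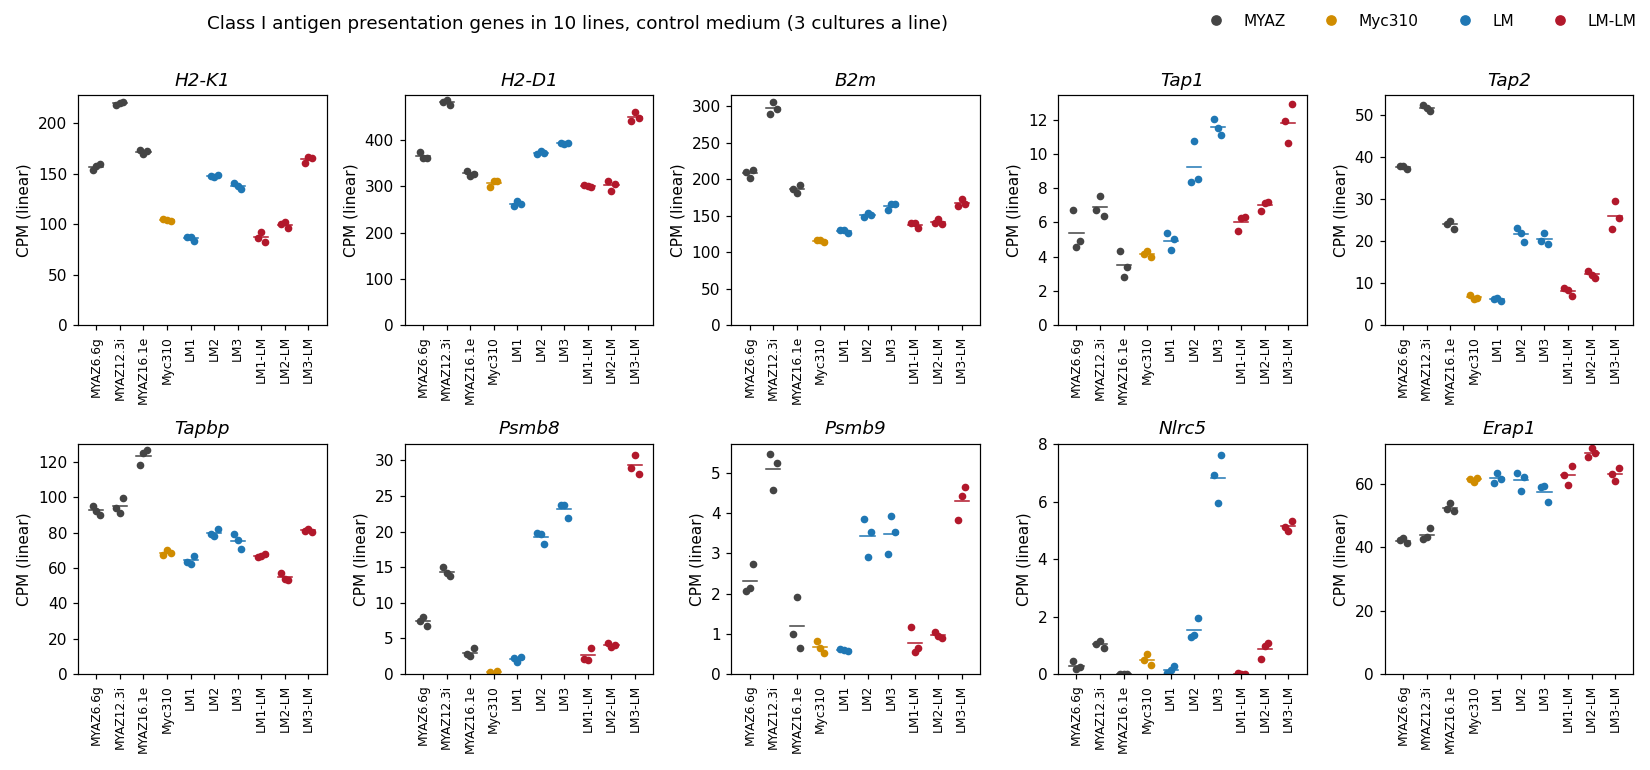
Level of each of the 10 genes in CPM on a linear axis, by line, in control medium. Points are single cultures, bars are the mean of 3 cultures, and colours give the subtype. LM2, LM3 and LM3-LM stand above Myc310, LM1, LM1-LM and LM2-LM for all genes but Erap1, and the Psmb8 mean is 0.247 CPM in Myc310 and 29.3 CPM in LM3-LM.

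Psmb8 encodes the immunoproteasome subunit that replaces the standard subunit Psmb5. The Myc310 cultures had 7, 1 and 9 counts (0.276, 0.044 and 0.421 CPM). LM1 had 2.22, 1.67 and 2.39 CPM and LM1-LM had 2.15, 2.04 and 3.64 CPM. LM2-LM had 4.33, 3.85 and 4.05 CPM. The other 3 lines of the lineage did not overlap with these: LM2 had 19.8, 19.7 and 18.2 CPM, LM3 had 23.7, 23.8 and 21.9 CPM, and LM3-LM had 28.99, 30.8 and 28.1 CPM. The ratio of the highest to the lowest line mean was 118.7, with under 10 counts per library behind the lowest.

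Nlrc5, which activates class I genes, stood highest in LM3 and LM3-LM, at lower counts. LM3 had 167, 154 and 170 counts (6.92, 5.96 and 7.63 CPM) and LM3-LM had 119, 109 and 127 counts (5.13, 4.97 and 5.32 CPM). LM2 had 30, 32 and 45 counts and LM2-LM had 14, 23 and 26. Myc310 had 12, 16 and 7 counts, LM1 had 1, 3 and 6, and LM1-LM had 1, 0 and 0. No read was counted in MYAZ16.1e, and LM3 was at least 52.2-fold higher against a floor of 3 counts per library.

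Tap2, a subunit of the peptide transporter, separated the same lines by several fold. Myc310 had 7.30, 6.34 and 6.59 CPM, LM1 had 6.29, 6.59 and 5.73 CPM, and LM1-LM had 8.91, 8.44 and 7.04 CPM. LM2 had 23.1, 22.05 and 19.9 CPM, LM3 had 20.1, 21.9 and 19.3 CPM, and LM3-LM had 22.8, 29.6 and 25.6 CPM, all above the 3 low lines. LM2-LM lay between them with 12.9, 12.1 and 11.3 CPM. The MYAZ lines spanned 23 to 52.4 CPM.

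H2-K1, a classical heavy chain that binds the peptide, varied less. Myc310 had 105.0, 104.8 and 103.2 CPM, LM1 had 87.2, 87.7 and 83.6 CPM, and LM1-LM had 86.9, 92.5 and 82.6 CPM. LM2 had 147.6, 146.6 and 148.6 CPM, LM3 had 140.8, 137.8 and 135.2 CPM, and LM3-LM had 161.3, 166.3 and 165.6 CPM. All cultures of the latter lines were above all cultures of the former. H2-D1, the other classical heavy chain, ranged from 262.4 ± 5.43 CPM (SD, n = 3) in LM1 to 481.0 ± 4.88 CPM in MYAZ12.3i.

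Tests between single lines used edgeR's quasi-likelihood test on the 30 control libraries with the line as the group, Benjamini-Hochberg adjusted over 13795 genes. The line pairs were chosen after the values were seen. LM2 exceeded LM1 in 9 of 10 members, where 51.2% of all genes differed (26.9% higher, 24.3% lower). LM3 exceeded LM1 in 9 of 10 (48% of all genes, 25.8% higher), and LM3-LM exceeded LM1-LM in 9 of 10 (53.3% of all genes, 26.5% higher and 26.8% lower). In each of these 3 comparisons Erap1 was the member that did not pass.

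For LM3 against LM1 the log2 fold changes were 3.50 ± 0.136 (SE) for Psmb8, 2.59 ± 0.275 for Psmb9, 1.76 ± 0.0909 for Tap2 and 1.27 ± 0.126 for Tap1. They were 0.71 ± 0.032 for H2-K1, 0.61 ± 0.0253 for H2-D1, 0.37 ± 0.0308 for B2m and 0.27 ± 0.0413 for Tapbp. The log2 fold changes of the transporter and immunoproteasome subunits were larger than those of the heavy and light chains. The largest of these 8 adjusted p-values was 1.01e-07 (edgeR's quasi-likelihood test, Benjamini-Hochberg).

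LM2-LM and LM1-LM were closer to each other. Of the 10 members, 5 were higher and 1 lower in LM2-LM, where 43.4% of all genes differed (22.9% higher, 20.5% lower). H2-K1 was higher by a log2 fold change of 0.18 ± 0.0324 (SE), Tap2 by 0.57 ± 0.0911, Psmb8 by 0.66 ± 0.16 and Erap1 by 0.15 ± 0.0425, and Tapbp was lower (-0.30 ± 0.042). Nlrc5, with 14 to 26 counts in LM2-LM and at most 1 in LM1-LM, was the remaining higher member. Without replicate 1 Psmb8 no longer passed and without replicate 2 Erap1 did not, with the largest adjusted p at 0.142 and 0.134 (edgeR's quasi-likelihood test, Benjamini-Hochberg).

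**Figure D2:**
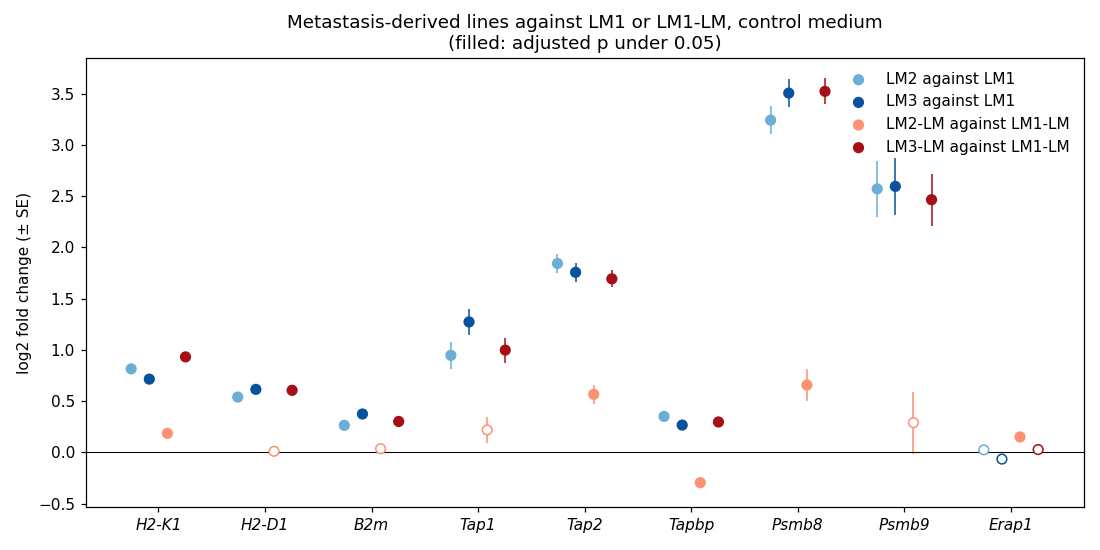
Log2 fold change with its SE for 9 members (Nlrc5 is left out because LM1-LM had at most 1 count) in 4 comparisons between lines in control medium. Filled points passed an adjusted p of 0.05. LM2 and LM3 against LM1 and LM3-LM against LM1-LM lie near each other, at 3.24 to 3.52 for Psmb8, and LM2-LM against LM1-LM lies near 0 for most genes.

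The steps from Myc310 to LM1 and from LM1 to LM1-LM were small for most members. LM1 against Myc310 gave 6 of 10 calls, 2 higher and 4 lower, against 33% of all genes (16.5% in each direction). Psmb8 was higher in LM1 (log2 fold change 3.04 ± 0.313, SE; adjusted p = 2.92e-12, edgeR's quasi-likelihood test, Benjamini-Hochberg) and B2m slightly so (0.14 ± 0.0318), while H2-K1 (-0.29 ± 0.0328), H2-D1 (-0.24 ± 0.0255), Tapbp (-0.11 ± 0.0419) and Nlrc5 (-1.65 ± 0.493) were lower. The Tapbp and Nlrc5 calls were lost without replicate 1 or 2. LM1-LM against LM1 gave 3 of 10 calls against 11.4% of all genes (5.9% higher, 5.52% lower): H2-D1 (0.19 ± 0.0255) and Tap2 (0.39 ± 0.105) were higher and Nlrc5, at 1, 3 and 6 counts in LM1 and 1, 0 and 0 in LM1-LM, was lower. The Tap2 call was lost without replicate 1 and the Nlrc5 call without replicate 2 or 3 and in DESeq2.

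Within MYAZ, MYAZ12.3i exceeded MYAZ16.1e in 8 of 10 members and was lower in Tapbp and Erap1, where 65.5% of all genes differed (34.5% higher, 31% lower). The log2 fold change was 2.23 ± 0.129 (SE) for Psmb8, 2.15 ± 0.234 for Psmb9, 1.11 ± 0.0672 for Tap2, 0.98 ± 0.138 for Tap1 and 0.68 ± 0.0289 for B2m. It was -0.37 ± 0.038 for Tapbp and -0.25 ± 0.0455 for Erap1. When the 10 lines were ordered by the level of each member, 44 of 90 neighbouring pairs differed (in the pairs tested, a median of 65.5% of all genes did). The order came from the same values, so neighbours were close by construction for the member that set it. Other genes did not set the order, so the share over all genes is not a like comparison. Tap1, Psmb9 and Nlrc5 had 2 of 9 differing neighbours each, and H2-K1 and Psmb8 had 7 of 9.

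Marker lists of other cell types were measured beside these lines. The summed level of 12 fibroblast markers was 90.1 to 276.9 CPM in LM2, LM3 and LM3-LM and 13.3 to 68.6 CPM in Myc310, LM1, LM1-LM and LM2-LM. In that list Dcn, Lum, Thy1 and Fap were at or below 0.142 CPM in every library and Col3a1 and Col6a3 carried the higher sums. The 8 endothelial markers summed to 5.04 to 12.01 CPM in the former 3 lines, 2.77 to 3.12 CPM in Myc310, 96.7 to 101.6 CPM in LM2-LM and 173.5 to 200.0 CPM in LM1 and LM1-LM. The high sums came from Eng, with up to 199.3 CPM in a library, while Pecam1 stayed at or below 0.246 CPM. The 12 mammary epithelial markers summed to 1956 to 2380 CPM in LM2, LM3 and LM3-LM and to 1010 to 1376 CPM in the other 4, mainly from Krt8 and Krt18. Epcam and Cdh1 stayed below 1 CPM in all libraries. The 7 leukocyte markers summed to 9.54 to 19.7 CPM over these 7 lines, mainly from Cd68. Ptprc and Lyz2 of that list stayed at or below 0.233 CPM and Cd74 of the MHC class II list at or below 0.281. The 6 alveolar markers summed to 1.83 to 6.67 CPM in LM2, LM3 and LM3-LM and 0.387 to 1.11 CPM in the other 4, with Hopx at up to 5.76 CPM and Sftpc at or below 0.0758. The part of these differences between lines in the class I levels was not tested.

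The first comparison taken from the study's design set each subtype against MYAZ in a model with subtype only. This model counts the 3 cultures of a line as separate samples. In it the light chain B2m, the loading factor Tapbp, Tap2 and H2-K1 passed as lower, and Erap1 as higher, in Myc310, LM and LM-LM alike. With counts summed per line H2-K1 and Tap2 passed in neither LM nor LM-LM, and Tapbp only in LM-LM. In Myc310 7 of 10 members differed from MYAZ, 1 higher and 6 lower, where 50.9% of all genes differed (23.8% higher, 27.1% lower). In LM 7 differed, 3 higher and 4 lower, where 60.8% of all genes did (30.2% higher, 30.6% lower). In LM-LM 7 differed, 3 higher and 4 lower, where 62.8% did (30.5% higher, 32.3% lower). The 3 comparisons share the 9 MYAZ libraries. The members' median log2 fold change was -0.71, -0.19 and -0.35, beside medians of -0.019, 0.002 and -0.012 over all genes.

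Marker lists of other cell types also differed from MYAZ. The leukocyte sum was 4.17 to 6.31 CPM in the control cultures of MYAZ and 9.54 to 19.7 CPM in those of the 7 other lines, and 2 of 2 tested leukocyte markers were higher in each subtype. Of 6 tested fibroblast markers 1, 2 and 2 were higher and 4, 3 and 4 lower in Myc310, LM and LM-LM, with sums of 7.52 to 99.5 CPM in MYAZ. Of 3 tested alveolar markers 0 were higher and 3, 2 and 2 lower, and of 4 endothelial markers 2, 3 and 2 were higher and 1 lower in each. The mammary epithelial sum was 334.7 to 1162 CPM in MYAZ, with 2 of 6 tested markers higher in each subtype and 2, 3 and 3 lower. The part of these markers in the class I differences was not tested.

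B2m had 117.2, 116.1 and 113.5 CPM in Myc310, and its 9 LM cultures spanned 126.7 to 166.3 CPM and its 9 LM-LM cultures 133.1 to 172.3 CPM. The 9 MYAZ cultures spanned 180.6 to 305.5 CPM and did not overlap with any of them. The log2 fold change was -1 ± 0.146 (SE) for Myc310, -0.64 ± 0.0972 for LM and -0.65 ± 0.0972 for LM-LM, with adjusted p-values of 1.52e-06, 1.72e-06 and 1.16e-06 (edgeR's quasi-likelihood test, Benjamini-Hochberg).

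Tapbp, the tapasin that bridges TAP and the heavy chain, had 67.3, 70.4 and 68.4 CPM in Myc310, 62.5 to 82.3 CPM in LM and 53.2 to 82.3 CPM in LM-LM, below the 90.05 to 126.7 CPM of MYAZ in every culture. Its log2 fold change was -0.60 ± 0.136 (SE), -0.50 ± 0.0928 and -0.63 ± 0.0929. Erap1 moved the other way, with 41.3 to 53.9 CPM in MYAZ and 54.3 to 71.2 CPM in the control cultures of Myc310, LM and LM-LM, and log2 fold changes of 0.41 ± 0.0675, 0.38 ± 0.0489 and 0.48 ± 0.0488. H2-K1 was lower by -0.82 ± 0.229, -0.56 ± 0.155 and -0.66 ± 0.155, and Tap2 by -2.49 ± 0.509, -1.22 ± 0.307 and -1.30 ± 0.308. Line means of both genes overlapped between MYAZ and LM-LM. The H2-K1 mean was 164.4 CPM in LM3-LM and 157 CPM in MYAZ6.6g, and the Tap2 mean was 26.03 CPM in LM3-LM and 23.98 CPM in MYAZ16.1e.

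H2-D1 passed in none of the 3 comparisons, with log2 fold changes of -0.36 ± 0.177 (SE; adjusted p = 0.0954), -0.19 ± 0.123 (0.184) and -0.18 ± 0.123 (0.217). Tap1 passed as higher in LM (0.71 ± 0.221) and LM-LM (0.64 ± 0.221), and in Myc310 it was -0.35 ± 0.321 (adjusted p = 0.385). Psmb8 and Psmb9 passed as lower in Myc310 (-5.04 ± 1.33 and -2.10 ± 0.802) but not in LM or LM-LM. The Psmb9 call was lost in 7 of 21 alternatives (largest adjusted p 0.573), and the Tap1 calls were lost in 4 of 22 for LM (0.218) and 5 of 22 for LM-LM (0.278), among them without LM3 for LM, without LM3-LM for LM-LM and without MYAZ16.1e for both. Nlrc5 passed as higher in LM (2.70 ± 0.953) and LM-LM (2.17 ± 0.947). Without LM3-LM the LM-LM value of Nlrc5 was -0.02 (adjusted p = 0.991), and over the alternatives its adjusted p ranged from 0.00777 to 0.991 (edgeR's quasi-likelihood test, Benjamini-Hochberg). Over the same alternatives the LM value of Nlrc5 ranged from 0.96 to 4.29, with an adjusted p of 0.00349 to 0.427.

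The model with subtype only counts the 3 cultures of a line as separate samples. With counts summed per line, 0 members of Myc310, 2 of LM and 3 of LM-LM passed, where 8.97%, 23.8% and 26.4% of all genes did. B2m (adjusted p = 0.0397 in LM and 0.0354 in LM-LM) and Erap1 (0.0169 and 0.00621) passed in both, and Tapbp in LM-LM (0.0353, all Benjamini-Hochberg adjusted, edgeR's quasi-likelihood test). On line means, 5 members of LM lay clear of MYAZ (H2-K1, B2m, Tap2, Tapbp and Erap1), as did 43.5% of all genes. In LM-LM 3 did (B2m, Tapbp and Erap1), as did 43.6% of all genes. Each of the members named had p = 0.1 in an exact permutation test, two-sided, the smallest value that 3 lines against 3 allow. Over single cultures, 4 members had no overlap between MYAZ and LM (27.5% of all genes had none), 3 between MYAZ and LM-LM (27%) and 7 between MYAZ and Myc310 (44.8%).

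LM against Myc310 gave 1 call of 10, where 4.93% of all genes passed (3.42% higher, 1.51% lower): Psmb8 was higher in LM (log2 fold change 5.90 ± 1.36, SE; adjusted p = 0.00714, edgeR's quasi-likelihood test, Benjamini-Hochberg). The call was lost without any 1 replicate number, with counts summed per line and with voom, and without LM1 5 members and 10.8% of all genes passed. LM-LM against LM gave 0 calls, where 0.732% of all genes passed (0.254% higher, 0.478% lower), with 0 members at an unadjusted p under 0.05 in edgeR's quasi-likelihood test. By adjusted p DESeq2 also called 0. Without LM3-LM 4 members and 15.1% of all genes passed. The log2 fold changes of this comparison lay between -0.53 for Nlrc5 and 0.10 for Erap1.

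The second comparison taken from the study's design asked how 6 h without cysteine and cystine changed each of the 4 lines. The heavy chains moved in opposite directions in all 4 lines: H2-K1 fell and H2-D1 rose. B2m rose in Myc310, LM1 and LM1-LM. Tap2 fell in all 4 lines, and Tap1 and Tapbp fell in Myc310, LM1 and LM1-LM. The test was edgeR's quasi-likelihood test, Benjamini-Hochberg adjusted over 13400 genes. Of 10 members 3 passed in MYAZ16.1e, 1 higher and 2 lower, where 53.6% of all genes did (26.5% higher, 27.1% lower). In Myc310 7 passed, 2 higher and 5 lower, where 66.8% of all genes did (32.9% higher, 34% lower). In LM1 7 passed, 2 higher and 5 lower, where 71.2% did (35.8% higher, 35.4% lower), and in LM1-LM 8 passed, 2 higher and 6 lower, where 72.4% did (36.5% higher, 35.9% lower). The cultures had no overlap between media for 4, 8, 9 and 8 members, and for 58.9%, 69.4%, 73.4% and 74% of all genes. The members' median log2 fold change was -0.08, -0.12, -0.33 and -0.23, beside 0, -0.013, -0.005 and 0 over all genes.

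Marker sums moved with the medium as well. Mammary epithelial markers summed to 1134 to 1162 CPM in control and 1341 to 1389 CPM in deprived MYAZ16.1e, 1360 to 1376 and 1581 to 1615 CPM in Myc310, 1096 to 1124 and 1376 to 1413 CPM in LM1, and 1010 to 1057 and 1315 to 1343 CPM in LM1-LM. Of 5 tested, 4, 3, 3 and 3 were higher and 0 lower. The fibroblast sum was lower in deprived LM1 (21.2 to 26.15 CPM against 16.96 to 19.3) and LM1-LM (62.5 to 68.6 against 30.7 to 33.2), higher in MYAZ16.1e (7.52 to 10.2 against 10.8 to 11.9) and overlapped in Myc310. The endothelial sum was lower in deprived LM1 (173.5 to 177.4 against 137 to 144.4) and LM1-LM (175.2 to 200 against 151.3 to 158). It was higher in deprived MYAZ16.1e (7.888 to 8.63 against 8.745 to 11.03) and overlapped in Myc310. The leukocyte sum was higher in deprived Myc310 (9.55 to 10.4 against 11.8 to 13.5) and LM1 (9.54 to 10.2 against 11.7 to 13.7). The alveolar sum was lower in deprived MYAZ16.1e (1.80 to 2.58 against 1.00 to 1.21) and LM1 (0.632 to 1.03 against 0.276 to 0.465). It was also lower in deprived LM1-LM (0.387 to 0.653 against 0.0504 to 0.306) and overlapped in Myc310. The part of these markers in the response of the class I genes was not tested.

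**Figure D3:**
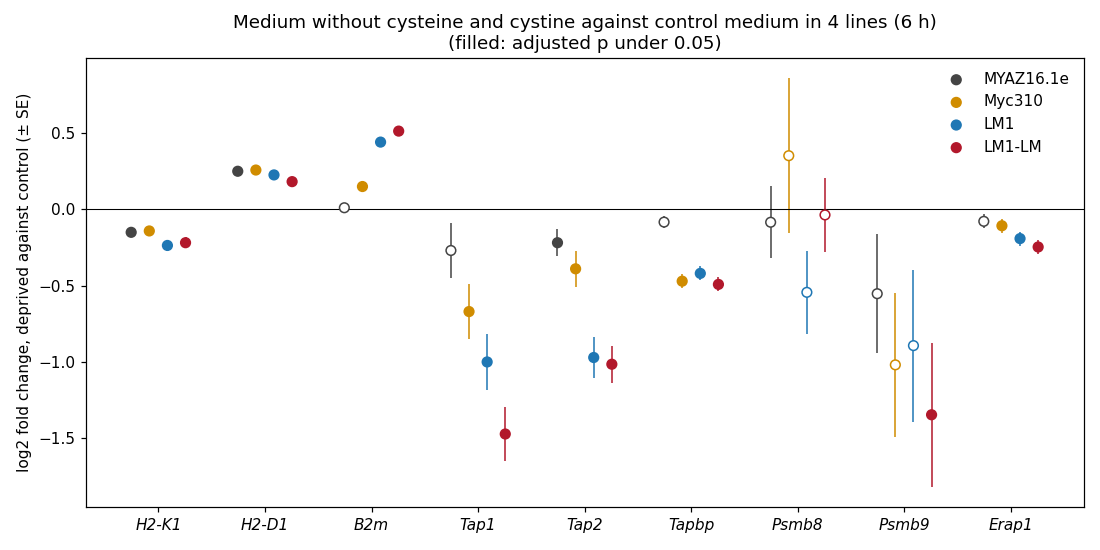
Log2 fold change with its SE of 9 members in medium without cysteine and cystine against control medium, 3 cultures against 3 in each of 4 lines. Filled points passed an adjusted p of 0.05 and open points did not. H2-K1 lies below 0 and H2-D1 above 0 in every line, and Tap1 runs from -0.27 in MYAZ16.1e to -1.47 in LM1-LM.

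In MYAZ16.1e H2-K1 had 173.7, 169.5 and 172.9 CPM in control medium and 152.9, 159.7 and 154.2 CPM without cysteine and cystine. In Myc310 it went from 105.0, 104.8 and 103.2 CPM to 94.0, 95.6 and 96.8 CPM. In LM1 it went from 87.2, 87.7 and 83.6 CPM to 70.0, 72.0 and 72.1 CPM. LM1-LM went from 86.9, 92.5 and 82.6 CPM to 74.4, 74.1 and 70.8 CPM. The cultures did not overlap between media in any line. The changes on the log2 scale were -0.15 ± 0.0324, -0.14 ± 0.0349, -0.24 ± 0.0369 and -0.22 ± 0.0364 (SE), with adjusted p-values from 6.87e-08 to 0.000301 (edgeR's quasi-likelihood test, Benjamini-Hochberg).

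H2-D1 had 333.4, 322.4 and 327.2 CPM in MYAZ16.1e in control medium and 381.4, 400.6 and 391.1 CPM without cysteine and cystine. In Myc310 it went from 297.4, 311.5 and 311.6 CPM to 360.1, 366.0 and 383.4 CPM. In LM1 it went from 257.5, 268.3 and 261.6 CPM to 293.9, 299.6 and 304.7 CPM. LM1-LM went from 301.7, 299.4 and 297.1 CPM to 339.0, 321.8 and 330.5 CPM. Every deprived culture was above every control culture of its line. The log2 fold changes were 0.25 ± 0.0267, 0.26 ± 0.0268, 0.23 ± 0.0274 and 0.18 ± 0.0269 (SE), and the largest adjusted p was 2.12e-08 (edgeR's quasi-likelihood test, Benjamini-Hochberg). The near-identical promoter blocks of H2-K1 and H2-D1 printed earlier are those of the reference genome. Their part in the response was not tested.

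B2m overlapped between media in MYAZ16.1e and not in the other 3 lines. In MYAZ16.1e it had 186.4, 180.6 and 192.0 CPM in control medium and 187.2, 191.7 and 186.7 CPM in deprived medium. In LM1 it went from 130.5, 130.5 and 126.7 CPM to 168.2, 172.3 and 172.6 CPM. LM1-LM went from 139.4, 139.8 and 133.1 CPM to 193.0, 192.4 and 187.4 CPM, with no overlap. In Myc310 it went from 117.2, 116.1 and 113.5 CPM to 132.4, 129.9 and 125.9 CPM. The log2 fold changes were 0.01 ± 0.0285 (SE; adjusted p = 0.807) for MYAZ16.1e, 0.15 ± 0.0304 for Myc310, 0.44 ± 0.0298 for LM1 and 0.51 ± 0.0292 for LM1-LM (edgeR's quasi-likelihood test, Benjamini-Hochberg).

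**Figure D4:**
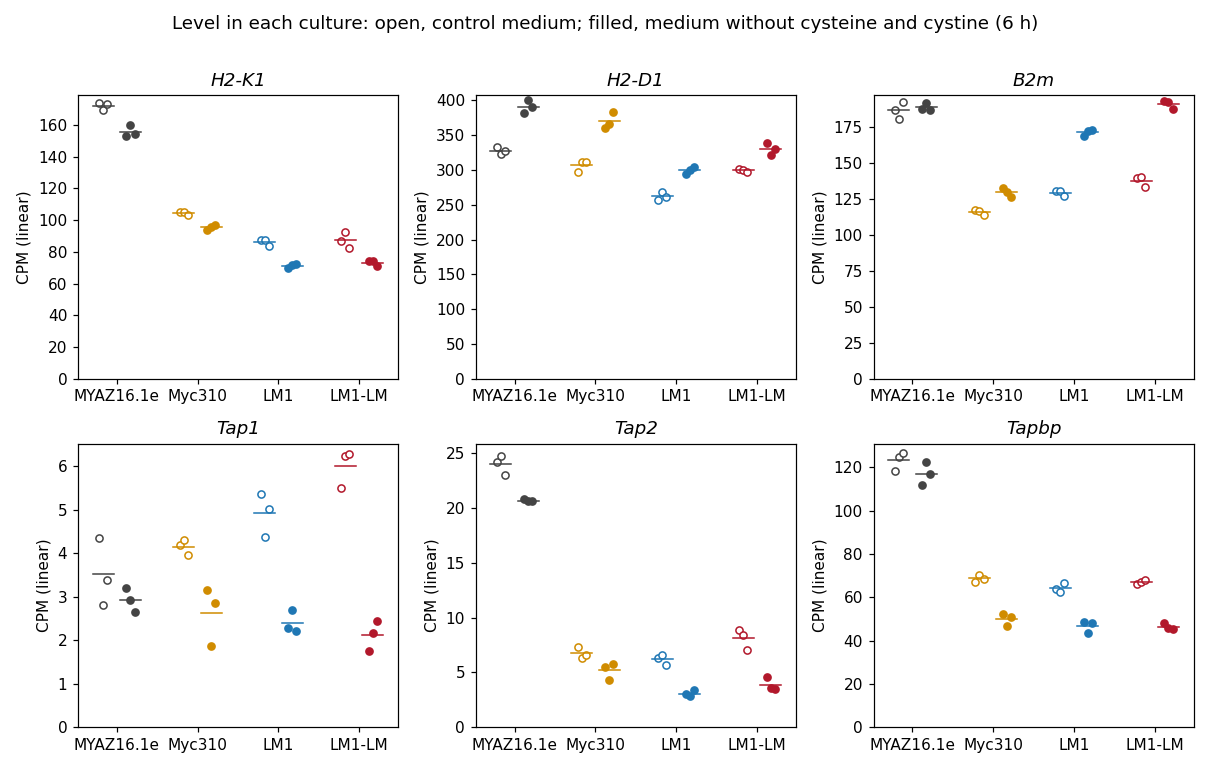
CPM of 6 members in each culture on a linear axis, with open points for control medium and filled points for medium without cysteine and cystine, and a bar at the mean of 3 cultures. The B2m mean of LM1 is 129.2 CPM in control and 171.0 CPM in deprived medium, that of LM1-LM is 137.4 and 190.9 CPM, and B2m overlaps between media in MYAZ16.1e, while Tap1 and Tap2 fall in Myc310, LM1 and LM1-LM.

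The transporter genes had their lowest log2 fold changes in LM1 and LM1-LM. Tap1 had 5.36, 4.38 and 5.02 CPM in LM1 in control medium and 2.28, 2.70 and 2.21 CPM in deprived medium. In LM1-LM it went from 5.51, 6.23 and 6.30 CPM to 1.76, 2.17 and 2.44 CPM. In Myc310 it went from 4.18, 4.31 and 3.97 CPM to 3.17, 1.86 and 2.86 CPM. These groups did not overlap, whereas in MYAZ16.1e 4.36, 2.82 and 3.40 CPM overlapped with 3.21, 2.93 and 2.65 CPM. The log2 fold changes were -0.27 ± 0.18 (SE; adjusted p = 0.212) for MYAZ16.1e, -0.67 ± 0.179 for Myc310, -1 ± 0.181 for LM1 and -1.47 ± 0.179 for LM1-LM (edgeR's quasi-likelihood test, Benjamini-Hochberg). Without replicate 2 the Myc310 call was lost (largest adjusted p 0.0633).

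Tap2 had 24.2, 24.7 and 23 CPM in MYAZ16.1e in control medium and 20.8, 20.6 and 20.6 CPM in deprived medium. In Myc310 it went from 7.30, 6.34 and 6.59 CPM to 5.48, 4.34 and 5.76 CPM. In LM1 it went from 6.29, 6.59 and 5.73 CPM to 3.02, 2.83 and 3.40 CPM. LM1-LM went from 8.91, 8.44 and 7.04 CPM to 4.55, 3.63 and 3.48 CPM. All deprived cultures were below the control cultures of their line. On the log2 scale the changes were -0.22 ± 0.0884, -0.39 ± 0.118, -0.97 ± 0.133 and -1.02 ± 0.12 (SE). The MYAZ16.1e call was lost without replicate 1 or 2 (largest adjusted p 0.149) and the Myc310 call without replicate 2 (0.0527, edgeR's quasi-likelihood test, Benjamini-Hochberg).

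Tapbp fell by 0.47 ± 0.0448 (SE) on the log2 scale in Myc310, by 0.42 ± 0.0459 in LM1 and by 0.49 ± 0.0453 in LM1-LM, and its change in MYAZ16.1e was -0.08 ± 0.0396 (adjusted p = 0.069, edgeR's quasi-likelihood test, Benjamini-Hochberg). In LM1-LM this was a step from 66.2, 67.1 and 68.0 CPM to 48.0, 45.8 and 45.4 CPM. Erap1 fell by 0.11 ± 0.045 for Myc310, 0.19 ± 0.0459 for LM1 and 0.25 ± 0.0454 for LM1-LM, and the Myc310 call was lost without any 1 replicate number and in DESeq2. Psmb9 passed in LM1-LM with a log2 fold change of -1.35 ± 0.473, from 27, 13 and 14 counts to 8, 8 and 4, and the call was lost without replicate 1 (largest adjusted p 0.179).

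Psmb8 and Nlrc5 passed in none of the 4 lines. Psmb8 log2 fold changes were -0.08 ± 0.236 (SE), 0.35 ± 0.506, -0.54 ± 0.272 and -0.04 ± 0.244 in the order MYAZ16.1e, Myc310, LM1, LM1-LM, with adjusted p-values from 0.0694 to 0.91 (edgeR's quasi-likelihood test, Benjamini-Hochberg). Nlrc5 had 12, 16 and 7 counts in Myc310 in control medium and 19, 21 and 13 in deprived medium. In LM1 it had 1, 3 and 6 against 7, 7 and 4 counts, and in LM1-LM and MYAZ16.1e no library of either medium exceeded 3 counts, so a change there was not detectable at this depth.

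The responses were compared directly with that of MYAZ16.1e, whose libraries all 3 comparisons share. The rise of B2m was larger in Myc310 by 0.14 ± 0.0417 (SE, log2), in LM1 by 0.43 ± 0.0413 and in LM1-LM by 0.50 ± 0.0408. The fall of Tapbp was larger too, with differences of -0.39 ± 0.0598, -0.34 ± 0.0607 and -0.41 ± 0.0602. For Tap2 the difference was -0.75 ± 0.16 in LM1 and -0.80 ± 0.15 in LM1-LM, and for Tap1 it was -0.73 ± 0.256 and -1.20 ± 0.255. With TMM scaling the responses of H2-K1 and H2-D1 gave no call, with differences between -0.09 and 0.01.

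In all, 2 members differed in Myc310 (40.4% of all genes did, with 19.8% higher and 20.6% lower). For LM1 the number was 4 (52.4% of all genes, with 26.9% higher and 25.5% lower). For LM1-LM it was 5 (55%, with 28.5% higher and 26.5% lower), including Erap1 (-0.17 ± 0.0649, SE). The test was edgeR's quasi-likelihood test, Benjamini-Hochberg adjusted. Of the called members 1 was higher and 3 lower in LM1, and 1 higher and 4 lower in LM1-LM. With upper-quartile normalization the split was 1 higher and 6 lower in both, and the share of higher genes among all called genes was 51.4% with TMM and 41.1% with upper-quartile scaling for LM1, and 51.8% and 41.6% for LM1-LM. Calls lost without 1 replicate were B2m in Myc310 (without replicate 1 or 3, largest adjusted p 0.0521), Tap1 in LM1 (without replicate 1 or 3, 0.0769) and Erap1 in LM1-LM (without replicate 3, 0.492).

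NDI1 was compared with its parent line in 3 cultures each, a comparison that rests on 1 line with the construct. All but Tapbp and Erap1 stood lower with NDI1. By edgeR's quasi-likelihood test, Benjamini-Hochberg adjusted over 12841 genes, 9 of 10 members passed, 2 higher and 7 lower, where 19.3% of all genes did (9.1% higher, 10.2% lower), and the cultures did not overlap for 10 of 10 members, where 34.7% of all genes did not. The median log2 fold change of the members was -0.30, beside 0.001 over all genes. The fibroblast sum was 94.9 to 99.5 CPM in the parent and 104.4 to 107.4 CPM with NDI1, the mammary epithelial sum 334.7 to 348.2 and 362.2 to 375.4 CPM, and the endothelial sum 9.77 to 10.7 and 8.07 to 8.67 CPM, and their part in the differences was not tested.

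**Figure D5:**
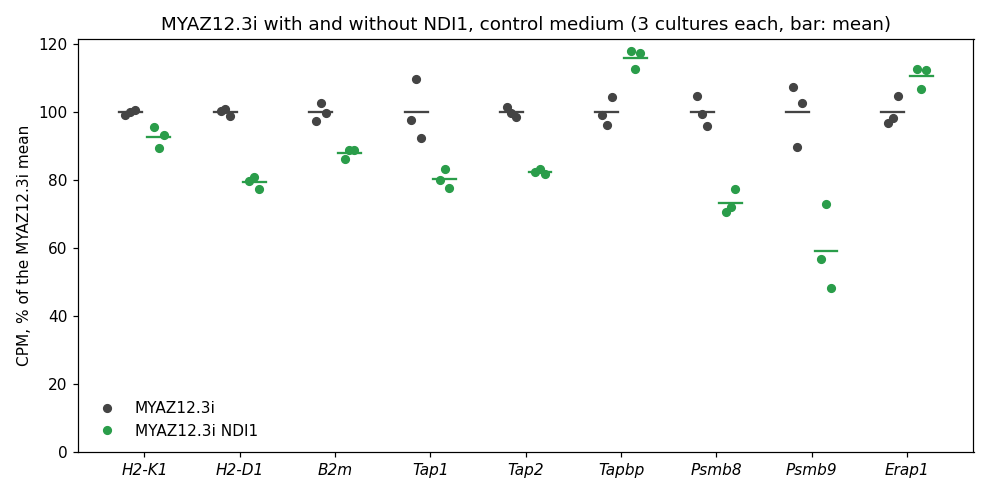
Level of 9 members in each MYAZ12.3i and MYAZ12.3i NDI1 culture as a percentage of the MYAZ12.3i mean, with a bar at the mean of 3 cultures. H2-D1 lies at 381.8 CPM with NDI1 and 481.0 CPM without, and Tapbp and Erap1 are the members that lie above the parent line.

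H2-D1 had 482.3, 485.1 and 475.6 CPM in the parent and 384.2, 389.4 and 371.9 CPM with NDI1, a log2 fold change of -0.34 ± 0.0275 (SE; adjusted p = 9.24e-10, edgeR's quasi-likelihood test, Benjamini-Hochberg). H2-K1 had 218.3, 220.1 and 221.3 CPM in the parent and 210.5, 197.1 and 205.1 CPM with NDI1 (-0.11 ± 0.0288). B2m had 289.2, 305.5 and 296.5 CPM in the parent and 255.9, 264.2 and 264.1 CPM with NDI1 (-0.19 ± 0.028). The 3 genes that make the surface complex were lower in every NDI1 culture, H2-D1 most.

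Psmb8 had 14.97, 14.2 and 13.7 CPM in the parent and 10.1, 10.3 and 11.1 CPM with NDI1 (-0.45 ± 0.0845, SE). Psmb9 had 133, 100 and 132 counts in the parent and 61, 98 and 65 with NDI1, or 5.48, 4.58 and 5.25 CPM against 2.90, 3.73 and 2.46 CPM (-0.76 ± 0.165). Nlrc5 had 25, 25 and 23 counts in the parent and 3, 3 and 9 with NDI1, with a log2 fold change of -2.32 ± 0.438 (adjusted p = 0.000347, edgeR's quasi-likelihood test, Benjamini-Hochberg). The activator and both immunoproteasome subunits were lower in all NDI1 cultures.

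Tap2 had 52.4, 51.5 and 50.9 CPM in the parent and 42.6, 43.0 and 42.2 CPM with NDI1 (-0.28 ± 0.0445, SE), and Tap1 had 6.72, 7.57 and 6.36 CPM against 5.51, 5.74 and 5.34 CPM (-0.32 ± 0.121; adjusted p = 0.0665). Tapbp rose from 94.2, 91.4 and 99.4 CPM to 112.2, 107.2 and 111.5 CPM (0.21 ± 0.0378) and Erap1 from 42.5, 43.2 and 46.0 CPM to 49.6, 46.9 and 49.5 CPM (0.14 ± 0.0469; adjusted p = 0.0323, edgeR's quasi-likelihood test, Benjamini-Hochberg). DESeq2 gave no adjusted p for Nlrc5. The Erap1 call was lost in DESeq2 and without any 1 replicate number, and the H2-K1 call without replicate 2.

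Other genes of the pathway were read from 6 lists. Against MYAZ, 23.8%, 30.2% and 30.5% of all genes were higher and 27.1%, 30.6% and 32.3% lower in Myc310, LM and LM-LM. Of 12 tested nonclassical and other class I heavy chains, 0 were higher and 6, 6 and 8 lower than MYAZ in Myc310, LM and LM-LM. H2-Q4 was lower in all 3, with log2 fold changes of -0.96 ± 0.384 (SE), -0.68 ± 0.257 and -0.88 ± 0.258. Mr1 and Cd1d1 of this list were near the floor outside MYAZ. Mr1 had a mean of 5.80 CPM in MYAZ and 0.0550 in Myc310, and Cd1d1 had 1.60 and 0.044. Of 10 loading and quality control genes, 4, 5 and 5 were higher and 5, 5 and 5 lower. Tapbpl, a tapasin relative that edits peptides, had -0.70 ± 0.23, -0.45 ± 0.156 and -0.69 ± 0.157. The 14 peptide supply genes were divided likewise (6, 5 and 6 higher, 4, 5 and 5 lower), with the peptidase Lap3 lower in all 3 (-0.54 ± 0.0616, -0.49 ± 0.0423 and -0.43 ± 0.0423).

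The interferon lists held more lower than higher genes against MYAZ, where 27.1%, 30.6% and 32.3% of all genes were lower. Of 28 tested interferon-stimulated genes, 2, 3 and 3 were higher and 18, 15 and 17 lower in Myc310, LM and LM-LM, with median log2 fold changes of -2.26, -0.85 and -1.02. Some of these genes were near the floor outside MYAZ and could pass the count filter through MYAZ alone. Cxcl10 had a mean of 1.11 CPM in MYAZ and 0 in Myc310, Usp18 had 0.770 and 0.0575, and Rtp4 had 0.627 and 0. The counts and medians include such genes and were not recomputed without them. Ifngr2, a subunit of the interferon gamma receptor, was at 20.9 to 32.5 CPM in the MYAZ line means and 6.56 to 10.3 CPM in the 7 other lines (log2 fold changes -1.85 ± 0.167, SE, -1.65 ± 0.107 and -1.45 ± 0.107). The transcription factor Irf1 had -0.79 ± 0.157, -0.68 ± 0.106 and -0.79 ± 0.107, and Stat2 had -1.20 ± 0.299, -1.08 ± 0.198 and -1.10 ± 0.198. Irf8 was higher in all 3 (1.20 ± 0.349, 1.69 ± 0.266 and 1.93 ± 0.268), and so was Lgals3bp (2.10 ± 0.324, 3.22 ± 0.265 and 3.05 ± 0.264). Of the 10 interferon reception genes 1 was higher and 6 lower in each subtype, and of the 15 transcriptional control genes 3, 2 and 2 were higher and 9, 9 and 9 lower.

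Without cysteine and cystine 26.5%, 32.9%, 35.8% and 36.5% of all genes were higher and 27.1%, 34%, 35.4% and 35.9% lower, in the order MYAZ16.1e, Myc310, LM1, LM1-LM. Of the 14 peptide supply genes, 7 were lower for MYAZ16.1e, 10 for Myc310, 10 for LM1 and 8 for LM1-LM, and 0, 1, 3 and 2 were higher. Psmb10, the immunoproteasome subunit that is the partner of Psmb8 and Psmb9, fell by 0.36 ± 0.061 (SE), 0.90 ± 0.0678, 0.96 ± 0.0708 and 0.87 ± 0.0685 on the log2 scale. It went from 28.9 ± 0.493 CPM (SD, n = 3) to 14.5 ± 0.948 CPM in LM1. The peptidase Thop1, which destroys peptides in the cytosol, fell by 0.32 ± 0.0327, 0.73 ± 0.0325, 0.80 ± 0.0337 and 0.76 ± 0.0331.

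The loading list was mixed under deprivation, with 2, 3, 3 and 3 of 10 genes higher and 5, 6, 6 and 5 lower. Calr, the chaperone calreticulin of the loading complex, fell by 0.45 ± 0.0233 (SE), 0.60 ± 0.0234, 0.51 ± 0.0233 and 0.55 ± 0.0233. Tapbpl rose in all 4 lines (0.81 ± 0.122, 1.38 ± 0.136, 0.98 ± 0.146 and 1.39 ± 0.142), while its relative Tapbp fell in Myc310, LM1 and LM1-LM. Among 8 tested heavy chains, 1, 1, 1 and 0 rose and 1, 3, 3 and 1 fell. H2-M3 rose in MYAZ16.1e, Myc310 and LM1 (0.67 ± 0.0927, 0.55 ± 0.0945 and 0.28 ± 0.102), and H2-T10 fell in Myc310, LM1 and LM1-LM (-0.61 ± 0.124, -0.67 ± 0.127 and -0.76 ± 0.127).

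The interferon lists were mixed under deprivation too, where 53.6%, 66.8%, 71.2% and 72.4% of all genes passed in either direction. Of 23 tested interferon-stimulated genes, 3, 3, 8 and 9 rose and 3, 11, 10 and 11 fell, in the same order of lines. Irgm1, a GTPase of cell-autonomous immunity, fell in all 4 (-0.51 ± 0.169, SE, -1.25 ± 0.206, -1.47 ± 0.221 and -1.51 ± 0.207). Of 10 reception genes, 2 rose in each line and 3, 4, 6 and 5 fell. Ifngr2 fell by 0.53 ± 0.092, 0.85 ± 0.121, 1.49 ± 0.124 and 1.67 ± 0.122, and Socs3, a feedback inhibitor of cytokine receptors, rose in Myc310, LM1 and LM1-LM (0.90 ± 0.0966, 1.08 ± 0.0996 and 1.28 ± 0.099). Of 15 transcriptional control genes, 5, 6, 5 and 6 rose and 5, 4, 6 and 5 fell. Rela, the NF-kB subunit p65, rose by 0.36 ± 0.0353, 0.77 ± 0.0359, 1.05 ± 0.0356 and 1.07 ± 0.035, and Rfxank, a subunit of the complex that NLRC5 joins, by 0.45 ± 0.103, 0.76 ± 0.11, 1.02 ± 0.114 and 1.14 ± 0.11.

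The other lists were also read with NDI1, where 9.1% of all genes were higher and 10.2% lower. Of 12 heavy chains 0 were higher and 2 lower, of 14 peptide supply genes 4 were higher and 1 lower, and of 10 loading genes 3 were higher and 1 lower. Psmb10 was higher (0.35 ± 0.0573, SE), while Psmb8 and Psmb9 were lower. Of 28 interferon-stimulated genes 1 was higher (Cxcl10, 0.63 ± 0.201) and 4 were lower, led by Oas1a (-0.92 ± 0.217). Of 10 reception genes 1 was higher and 0 lower, and of 15 transcriptional control genes 1 was higher and 2 lower, among them Irf2 (-0.17 ± 0.0465).

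The genes whose levels were most like each member's across the 10 lines in control medium were found by Pearson's r of log2 levels among 9109 genes. The 10 points include lines derived from each other, and no test was made. B2m was most like Irf2 (r = 0.972), an IRF factor of the transcriptional control list. Tap1 was most like Mt2, a metallothionein (r = 0.974), and Tap2 most like Synpo (0.986). H2-K1 was most like Ube2t (0.968), which was also among the first 3 of Tap2 (0.979), and H2-D1 most like Fbxl8 (0.917). Psmb8 was most like Chst11 (0.962), Psmb9 most like Nckap5l (0.957), Nlrc5 most like Rin2 (0.942), Tapbp most like Tmem243 (0.959) and Erap1 most like Ercc1 (0.989).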

How the data were processed

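According to the study's methods and the submitters' processing notes, alignment was with STAR and gene quantification with RSEM on build GRCm38. The table deposited by the authors holds whole, unscaled counts for each gene. RSEM estimates need not be whole, and where they were rounded is not given in the sources used here. Groups came from the labels, and every column was mapped to 1 sample. The range and median of the library totals are given in the report, and p-values cover the spread between cultures only.

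Counts were analysed in R 4.3.3 with edgeR 4.0.16: TMM scaling, filterByExpr, and the quasi-likelihood test with Benjamini-Hochberg adjustment at 0.05 over all genes tested. The models were subtype only (30 control libraries), 8 groups (24 libraries) for deprivation with interaction contrasts for differences in response, 6 libraries for NDI1, and the line (30 libraries). Standard errors are the log2 fold change divided by the root of the F statistic. Line means on the log2(CPM + 0.1) scale were compared by two-sided exact permutation. Gene lists are given as counts and medians, with the named genes chosen as the up to 3 largest changes per list and comparison past the threshold whose mean log2 CPM reached 1. Similar genes were the 3 with the highest r among those whose mean log2 CPM reached 3. The models were tested on simulated counts. The members, lists, comparisons and named-gene rule were chosen with earlier results of these data known, and the contrasts between single lines after the values were seen.

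Alternatives were RLE and upper-quartile scaling, 2 other filters, DESeq2 1.42.0, a replicate block, leaving out each replicate number or line, counts summed per line, limma 3.58.1 voom with a random effect of the line, and smaller or larger sets of libraries. No pair of libraries agreed within sampling noise (chi-square per degree of freedom 2.258 to 6.764 over 45 pairs). Replicate numbers did not pair the cultures: the deviations of same-numbered cultures correlated at -0.388 to 0.376, over 0.1 in 13 of 150 pairs. List members absent from the table were not used here. The values of 1 gene of the lists are not reported here.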

Additional observations from a re-analysis of the deposited data

Results flagged for a closer look

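The response to loss of cysteine and cystine differed between lines for 5 members by the interaction test of edgeR's quasi-likelihood model, Benjamini-Hochberg adjusted over all genes. The difference in log2 fold change in the deprivation response of Myc310 against MYAZ16.1e was B2m 0.14 and Tapbp -0.39. The difference in log2 fold change in the deprivation response of LM1 against MYAZ16.1e was B2m 0.43, Tap1 -0.73, Tap2 -0.75 and Tapbp -0.34. The difference in log2 fold change in the deprivation response of LM1-LM against MYAZ16.1e was B2m 0.5, Tap1 -1.2, Tap2 -0.8, Tapbp -0.41 and Erap1 -0.17. In these 3 comparisons 2, 4 and 5 of 10 members passed, where 40.4%, 52.4% and 55% of all genes did. The calls of B2m in Myc310, Tap1 in LM1 and Erap1 in LM1-LM were lost when 1 replicate number was left out. All 3 comparisons share the MYAZ16.1e libraries.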

How the results depend on the processing

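Of 260 recomputed counts of members past the threshold 240 stayed within 1.5 times the reported count and 20 moved. With counts summed per line the count was 0 in place of 7 for Myc310 against MYAZ, 2 in place of 7 for LM and 3 in place of 7 for LM-LM, a setting that leaves 1 sample a line and in which 8.97%, 23.8% and 26.4% of all genes passed. The count for LM against Myc310, reported as 1, was 0 with at least 10 counts in every library, with counts summed per line and with voom, 2 with only these subtypes fitted, 3 with DESeq2, 5 without LM1 (10.8% of all genes), 2 without LM3-LM, 2 without MYAZ12.3i, 2 without MYAZ16.1e, and 0 to 0 without 1 replicate number. Without LM3-LM the count for LM-LM against LM was 4 in place of 0 (15.1% of all genes). The response of LM1 against MYAZ16.1e gave 7 in place of 4 with upper-quartile scaling, where 52.4% of all genes passed under either scaling. That of Myc310 against MYAZ16.1e gave 1 to 2 without 1 replicate number. Myc310 in deprived medium gave 4 to 6 in place of 7 without 1 replicate number, with 4 without replicate 2. The causes were not tested. Replicate numbers did not pair the cultures, and the replicate block changed 1 count, LM-LM against MYAZ, from 7 to 6. Of 2456 recomputed log2 fold changes 2282 kept their direction and side of the threshold, 83 lost the call, 39 gained it and 52 changed sign, 1 of them a reported call (Nlrc5 in LM-LM against MYAZ). DESeq2 gave no adjusted p for Nlrc5 in the NDI1 comparison and in the response of Myc310, which were left out of these numbers. The values that changed sign follow by comparison. For LM-LM against LM: without the line LM1-LM B2m 0.04, H2-K1 0.07, Nlrc5 0.05, Psmb8 0.15, Psmb9 0.05, Tap1 0.12 and Tap2 0.22, without the line LM2-LM B2m 0.03, H2-K1 0.01, Psmb8 0.09, Tap1 0.04 and Tap2 0.07, without the line LM3 B2m 0.07, Nlrc5 1.21, Psmb8 0.15, Tap1 0.21 and Tap2 0.12, without the line LM1 H2-D1 -0.15, without the line LM3-LM H2-D1 -0.21, without the line LM2 H2-K1 0.05 and Tap2 0.19. For deprivation response of Myc310 against MYAZ16.1e: upper-quartile normalization H2-D1 -0.03 and H2-K1 -0.03. For LM-LM against MYAZ: without the line LM3-LM Nlrc5 -0.02 and Psmb8 -1.32, voom Psmb8 -0.15, without the line MYAZ12.3i Psmb9 0.19. For LM1-LM deprived against control: upper-quartile normalization Nlrc5 -0.01. For Myc310 against MYAZ: without the line MYAZ16.1e Nlrc5 -0.39, without the line MYAZ6.6g Nlrc5 -0.05. For deprivation response of LM1-LM against MYAZ16.1e: upper-quartile normalization Psmb8 -0.04. For LM against MYAZ: without the line LM1 Psmb9 0.28, without the line MYAZ12.3i Psmb9 0.53. Where leaving out 1 replicate number changed a sign, the lowest and highest values follow. For MYAZ16.1e deprived against control: B2m -0.03 to 0.04 and Psmb8 -0.22 to 0.12. For deprivation response of Myc310 against MYAZ16.1e: Erap1 -0.04 to 0.01, H2-D1 -0.02 to 0.06, H2-K1 -0.02 to 0.05 and Nlrc5 -3.11 to 0.8. For LM1 against Myc310: Erap1 -0.04 to 0.01. For LM1-LM against LM1: Erap1 -0.02 to 0.08 and H2-K1 -0.01 to 0.03. For LM2 against LM1: Erap1 -0.02 to 0.08. For deprivation response of LM1 against MYAZ16.1e: H2-D1 -0.05 to 0.02, Nlrc5 -3.35 to 0.58 and Psmb9 -1.05 to 0.47. For LM1-LM deprived against control: Nlrc5 -2.24 to 2.44 and Psmb8 -0.4 to 0.35. For Myc310 against MYAZ: Nlrc5 -0.12 to 0.33. For deprivation response of LM1-LM against MYAZ16.1e: Psmb8 -0.25 to 0.23. For Myc310 deprived against control: Psmb8 -0.05 to 1.11. Low counts limit Nlrc5, Psmb9 and, in Myc310, Psmb8.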
